A study of Danio rerio with 6 samples.

Results

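RNA sequencing of whole zebrafish larvae measured 6 genes of the mitotic spindle and the kinetochore: *kif11*, *kif20ba*, *cenpf*, *CKAP2L*, *SPAG5* and *knstrn*, written as the deposited tables spell them. In the reference list of gene names used here, the Ensembl gene of *SPAG5* has the symbol si:dkey-25o16.4 and that of *CKAP2L* has none. Both names are thus those of the deposited tables. Each gene is represented by 1 Ensembl transcript, which makes 6 of the 54869 transcripts of the count table and 6 of the 424 transcripts that carry a gene name in the files. The members were chosen from the authors' tables of differential expression, that is, selected on the same contrast of mutant with wild type that is described here. All 6 transcripts are in the authors' DESeq table and 3 of them (*CKAP2L*, *SPAG5* and *knstrn*) are also in their Cuffdiff table. The paper's rule for differential expression asks for a significant change of at least 2-fold by both methods. *kif11*, *kif20ba* and *cenpf*, listed by DESeq alone, do not meet that rule. Their difference between genotypes is therefore a description, and where calls of a fit over all transcripts are counted for them, these were fixed by the selection and support nothing.

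Larvae were collected at 4 days post fertilization (dpf) in 2 groups, with 3 samples homozygous for flt1ka601 and 3 wild-type (WT) samples. The flt1ka601 allele is a small CRISPR/Cas deletion in *flt1*, which encodes a receptor and decoy for the growth factor Vegf, and it was made to remove both the membrane-bound and the soluble form. Larvae of both genotypes carried the Tg(kdrl:eGFP)s843 reporter, whose *kdrl* promoter is active in blood vessels. GEO's labels give the AB strain for WT and no strain for the mutants, so strain and genotype cannot be told apart. How many larvae a sample held, and whether the larvae of a group came from 1 clutch, is not given in the sources used here. Values per sample thus carry the spread between these samples, which may be partly technical.

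In a dividing cell, the spindle is built from microtubules and pulls the chromosomes apart. Motor proteins of the kinesin family slide the microtubules, and kinetochores, the protein structures on the centromeres, hold the chromosomes to their ends. In vertebrate cells, transcripts for much of this machinery are made mainly in the G2 and M phases, so that they are used as marks of dividing cells in bulk tissue. In a whole larva, dividing cells occur in many organs, such as the brain, the retinal margin, the gut, the blood and the vessels. In such bulk RNA a larger number of dividing cells and more RNA per dividing cell cannot be told apart.

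The mutant samples had between 10655504 and 13358468 reads on transcripts and the WT samples between 10792845 and 14936523. Of the reads placed at a single position, 30.8% to 34.8% were counted on transcripts and 43.5% to 46.8% lay on no annotated transcript. A further 20.0% to 23.1% were ambiguous between overlapping transcripts and entered no count, so the counts of a gene with several transcripts are incomplete. The 5 most counted transcripts took 26.96% to 28.04% of the reads in mutants and 28.2% to 36.9% in WT, with the highest share in WT replicate 1. Levels are therefore given in CPM, counts scaled to a common library size, with TMM factors that allow for differences in library composition. Gene names exist in the files only where the authors' tables list a transcript, so *flt1* itself and organ markers outside those tables were not analysed here.

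All 6 transcripts were higher in flt1ka601 larvae, and for each of them the lowest mutant sample exceeded the highest WT sample, as it did for 16.8% of all transcripts tested. The fold of the mean CPM lay between 2.04 and 2.15 for *kif11*, *kif20ba*, *CKAP2L*, *SPAG5* and *knstrn* and was 3.17 for *cenpf*. Together the 6 transcripts had 2910, 2203 and 2192 reads in the mutant samples and 1144, 1217 and 933 in the WT samples. Scaled, this was 208, 198 and 191 CPM in mutants and 88.0, 107 and 88.3 CPM in WT. The summed level averaged 199 ± 8.69 CPM in mutants and 94.3 ± 10.7 CPM in WT (mean ± SD, n = 3 each), a 2.11-fold difference.

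**Figure D1:**
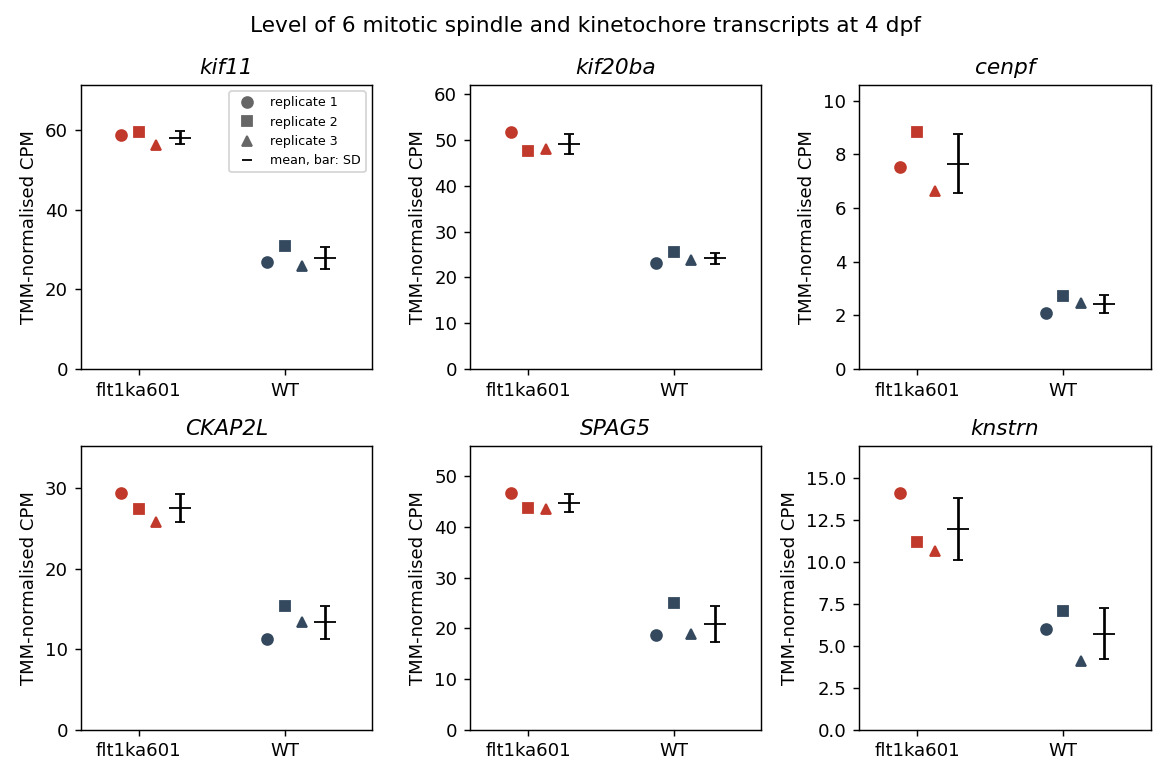
TMM-normalised CPM of each of the 6 transcripts in 3 flt1ka601 and 3 WT samples, with 1 point per sample and the mean with its SD beside the points. In every panel the mutant samples lie above the WT samples, and the closest approach is in *knstrn*, with 10.6 CPM in mutant replicate 3 and 7.096 CPM in WT replicate 2.

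Among the motors, *kif11* encodes kinesin-5, which in human cells pushes the spindle poles apart and is needed for a bipolar spindle. The *kif11* transcript ENSDART00000024194 had 822, 661 and 645 reads in flt1ka601 samples and 350, 353 and 273 in WT samples, the highest read numbers of the 6 members. Its level was 58.8, 59.5 and 56.2 CPM in mutants and 26.9, 30.9 and 25.8 CPM in WT. The groups did not overlap, and the lowest mutant sample was 1.82 times the highest WT sample. The mean was 58.2 ± 1.75 CPM in mutants and 27.9 ± 2.69 CPM in WT (SD, n = 3 each), and edgeR's fitted log2 fold change was 1.06 (SE 0.089).

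The gene *kif20ba* is 1 of the zebrafish copies of KIF20B, a kinesin-6 that acts at the end of cell division in human cells. Its transcript ENSDART00000104718 had 723, 529 and 553 reads in mutant samples and 301, 292 and 251 in WT samples. On the CPM scale these were 51.7, 47.6 and 48.2 in mutants and 23.1, 25.6 and 23.7 in WT. The values of each genotype were close together and far from those of the other. With means of 49.2 ± 2.24 CPM in mutants and 24.2 ± 1.27 CPM in WT (SD, n = 3 each), the log2 fold change was 1.03 (SE 0.084), the smallest fold among the members. This was the member nearest to a 2-fold change, the size that the authors' tables ask for. Mitotic genes just below that size are unnamed in the files, so none is set beside it here.

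CKAP2L is a microtubule-associated protein that localizes to the spindle and its poles in mammalian cells. The *CKAP2L* transcript ENSDART00000143598 had 411, 305 and 297 reads in flt1ka601 samples and 146, 176 and 141 in WT samples. Its CPM values were 29.4, 27.4 and 25.9 in mutants and 11.2, 15.4 and 13.3 in WT, again without overlap. It averaged 27.6 ± 1.77 CPM in mutants and 13.3 ± 2.096 CPM in WT (SD, n = 3 each), and the fitted log2 fold change was 1.05 (SE 0.12).

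The other 3 members act at or near the kinetochore. *cenpf* encodes centromere protein F, a very large coiled-coil protein that in human cells gathers on the outer kinetochore from G2 until anaphase. Its transcript ENSDART00000135517 stood on the fewest reads, with 105, 98 and 76 in mutant samples and 27, 31 and 26 in WT samples. This gave 7.51, 8.82 and 6.62 CPM in mutants and 2.08, 2.72 and 2.46 CPM in WT. Every mutant sample was at least 2.44 times the highest WT sample, the widest gap among the members. The mean was 7.65 ± 1.11 CPM in mutants and 2.42 ± 0.322 CPM in WT (SD, n = 3 each), and the fitted log2 fold change was 1.66 (SE 0.19, 95% confidence interval 1.24 to 2.08).

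SPAG5, also called astrin, stabilizes the attachment of kinetochores to microtubules in human cells. The *SPAG5* transcript ENSDART00000152299 had 652, 486 and 499 reads in mutant samples and 242, 284 and 199 in WT samples. Its level was 46.7, 43.7 and 43.5 CPM in mutants and 18.6, 24.9 and 18.8 CPM in WT. The mutants lay within a narrow band, and WT replicate 2 stood above the other WT samples. The means were 44.6 ± 1.77 CPM in mutants and 20.8 ± 3.56 CPM in WT (SD, n = 3 each), and the log2 fold change was 1.1 (SE 0.12).

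*knstrn* encodes kinastrin, the partner that human astrin binds at the kinetochore. Its transcript ENSDART00000109858 had 197, 124 and 122 reads in mutant samples and 78, 81 and 43 in WT samples. On the CPM scale it was at 14.1, 11.2 and 10.6 in mutants and 5.997, 7.096 and 4.07 in WT. This member had the widest spread between replicates, and its lowest mutant sample was 1.498 times its highest WT sample. It averaged 11.96 ± 1.87 CPM in mutants and 5.72 ± 1.53 CPM in WT (SD, n = 3 each). The fitted log2 fold change was 1.06 (SE 0.19, 95% confidence interval 0.63 to 1.49).

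Of the 6 members, 6 were called higher in mutants at an adjusted p under 0.05 by edgeR's quasi-likelihood test, fitted on all 21029 transcripts that passed its filter on low counts, with Benjamini-Hochberg adjustment over all of them. Of all transcripts tested, 5.44% were called higher. A fitted log2 fold change of at least 1 was reached by 6 of 6 members and by 1.88% of all transcripts tested. The median log2 fold change was 1.06 over the members and -0.0051 over all transcripts tested. Since the members were listed for this difference, nothing about them can be read from these counts.

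**Figure D2:**
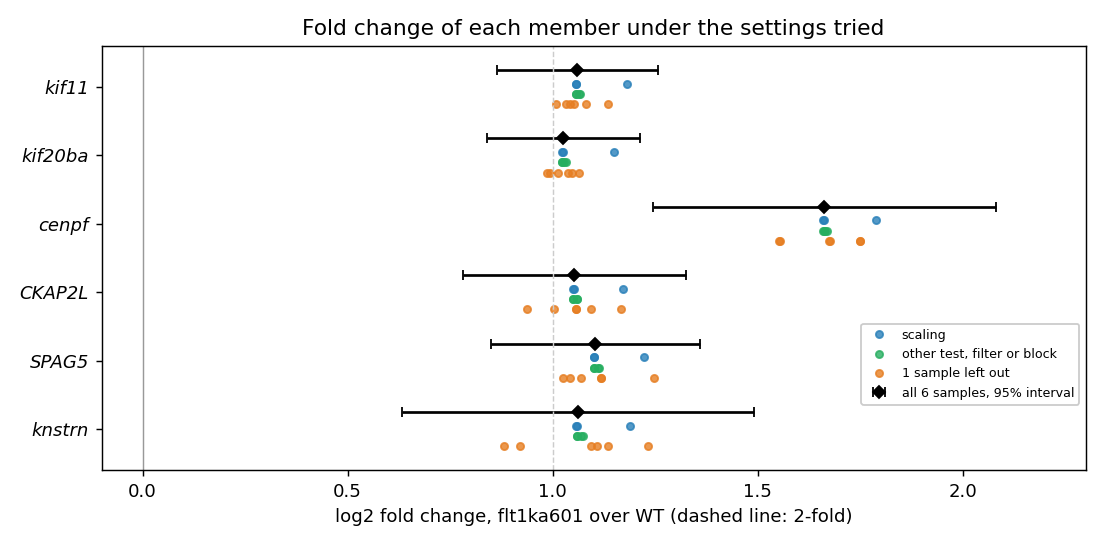
Log2 fold change of each member, flt1ka601 over WT, with the fit to all 6 samples as a black diamond with its 95% confidence interval and the alternative settings as coloured points. The interval of *cenpf* starts at 1.24, above the 2-fold line, while the intervals of the other members include it. The intervals are unadjusted, come from the contrast that selected the members and are no test against that line. The test against a 2-fold change (edgeR's glmTreat) called 0 of 6 members.

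The calls were kept by 6 of 6 members with the other scalings, with DESeq2, with the other filters, with the replicate number as a block and with each sample left out in turn. Over these settings 1.95% to 8.7% of all transcripts tested were called higher. A test against the 2-fold change itself (edgeR's glmTreat) called 0 of 6 members at an adjusted p under 0.05, and 1 of 6 had an unadjusted p under 0.05. It called 0.0713% of all transcripts tested higher, so nothing about the members can be read from this count. The share of all transcripts with an unadjusted p under 0.05 is not given here. Without WT replicate 1 and without mutant replicate 1, 4 of 6 members had a fitted log2 fold change of at least 1, and 5 of 6 did without WT replicate 3. The share of all transcripts at that size was 1.88% with all samples and was not taken for these refits.

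The proportions of the members among themselves do not depend on the scaling, because they compare reads within a sample. They differ between genotypes only as far as the members' folds differ, so they restate the fold changes and are not a separate result. The members were selected for a fold of at least 2, a size reached by only 1.88% of all transcripts tested. Such a cut can by itself gather folds just above it. A common change of the members can therefore not be read from nearly equal shares. *kif11* took 29.2% ± 0.90 of the reads of the 6 members in mutants and 29.6% ± 0.85 in WT (SD, n = 3 each). For *SPAG5* the share was 22.4% ± 0.35 in mutants and 21.9% ± 1.21 in WT. The shares of *kif20ba*, *CKAP2L* and *knstrn* also overlapped between the genotypes. *cenpf* alone among the 6 did not overlap, with 3.47% to 4.45% of the member reads in mutant samples and 2.36% to 2.79% in WT samples. Against *kif11* in the same sample, the mean log2 ratio of reads was -2.94 in mutants and -3.53 in WT for *cenpf*, a difference of 0.60, and the other members differed by -0.039 to 0.051. The difference of *cenpf* from the other members was not tested, since it comes from the contrast that selected them. Of the partners SPAG5 and kinastrin, *knstrn* had 0.302, 0.255 and 0.244 reads per *SPAG5* read in mutant samples and 0.322, 0.285 and 0.216 in WT samples, so that the genotypes overlapped in this ratio.

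**Figure D3:**
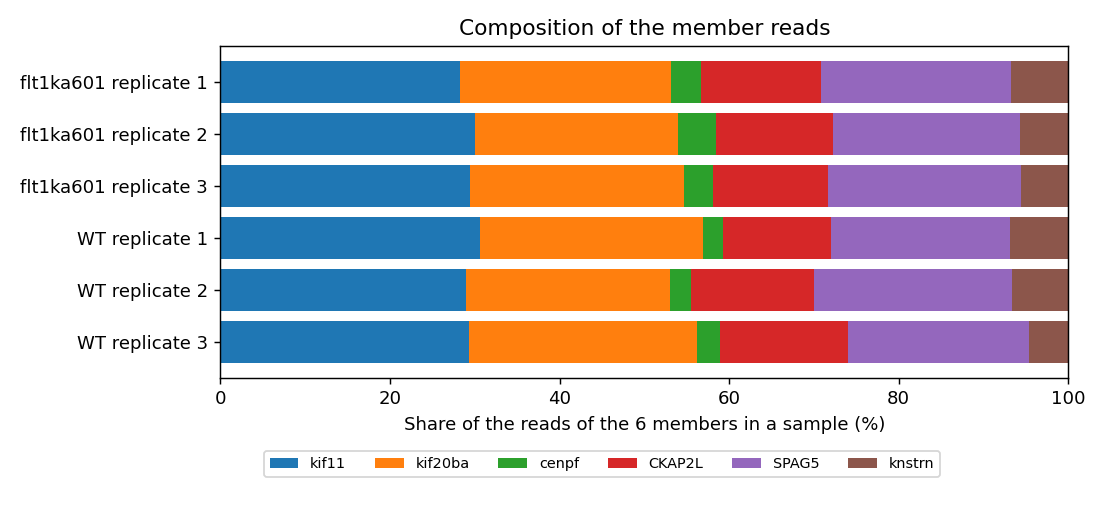
Share of the reads of the 6 members taken by each of them, in percent, with 1 bar for each flt1ka601 and WT sample. The bars are nearly alike but for *cenpf*, with 3.47% to 4.45% in the mutant samples and 2.36% to 2.79% in the WT samples.

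The spread between replicates differed more among the members than their fold did. The listing of the members as significantly changed by at least 2-fold acted on both, so neither can be read as a trait of these genes. In mutants the coefficient of variation of the CPM values was 3.00% for *kif11*, 3.97% for *SPAG5*, 4.56% for *kif20ba*, 6.44% for *CKAP2L*, 14.4% for *cenpf* and 15.6% for *knstrn*. Counting error alone gives 3.75% for *kif11*, 10.4% for *cenpf* and 8.23% for *knstrn* at their mean read numbers in mutants. *cenpf* and *knstrn*, with the widest spread in mutants, also had the fewest reads of the members. In WT the coefficient of variation ran from 5.26% for *kif20ba* to 26.8% for *knstrn*. Counting error alone gives 5.96% for *kif20ba* and 12.2% for *knstrn* in WT. Among transcripts within 1.5 times the mean count of *knstrn*, the median coefficient of variation was 9.67% in mutants and 12.4% in WT. WT samples were also more variable than mutant samples in *SPAG5*, with 3.97% in mutants and 17.1% in WT, beside medians of 6.10% in mutants and 8.59% in WT for transcripts of like count.

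The order of the samples within a genotype is a property that the choice of the members did not use. The replicate numbers are those of the column headings and could not be checked further. WT replicate 2 was the highest WT sample for 6 of 6 members, with each of the 4 scalings tried, and it was the highest for 29.0% of all transcripts tested under TMM. With total counts alone as the scaling, WT replicate 2 was the highest for 49.6% of all transcripts. Under TMM, WT replicate 1 was the lowest for 4 members and WT replicate 3 for 2. With total counts alone, WT replicate 1 was the lowest for 5 members and WT replicate 3 for 1. Among mutants, replicate 1 was the highest for 4 members and replicate 2 for 2, and replicate 3 was the lowest for 5 of 6 under TMM and for 4 of 6 under upper-quartile scaling. Of all transcripts tested, mutant replicate 1 was the highest for 36.4% and mutant replicate 3 the lowest for 33.5% under TMM. As the members were counted in the same libraries, they are not independent of each other in this order.

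Levels of different genes can be compared only per transcript length, which the authors' Cuffdiff table gives for 3 members as FPKM (fragments scaled for transcript length and for library size), with 1 value per genotype and no spread. The authors' FPKM value of *knstrn* was 5.62 in mutants and 2.76 in WT, that of *CKAP2L* 4.13 in mutants and 2.04 in WT, and that of *SPAG5* 3.85 in mutants and 1.85 in WT. By these single values *knstrn* was the highest of the 3 per length, although it had the fewest reads of them. Without a spread, whether the levels of the 3 differ from each other cannot be said.

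Other genes of mitosis were looked up by name in lists of 31 spindle motors and microtubule-associated proteins, 44 proteins of kinetochore, centromere and checkpoint, and 30 regulators of mitotic entry and exit. Of these 105 names, 6 are in the authors' deposited tables, 2 of the first list, 4 of the second and 0 of the third. All 6 were called higher in mutants by the edgeR fit described above, beside 5.44% of all transcripts tested. The median log2 fold change of the 6 was 1.1. A name in the files depends on being listed as changed, so nothing is known here of the remaining names. The spindle gene *numa1*, whose protein NuMA anchors microtubules at the spindle poles, had 455, 390 and 376 reads in mutants and 182, 206 and 178 in WT. The cytokinesis kinesin *kif14* had 61, 46 and 44 reads in mutants and 22, 19 and 14 in WT. Their log2 fold changes were 1.04 (SE 0.11) for *numa1* and 1.39 (SE 0.21) for *kif14*. Both genes are listed by DESeq alone, so they do not meet the paper's rule of a change by both methods.

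On the kinetochore side, *mad2l1*, the Mad2 protein of the spindle checkpoint, had 329, 221 and 245 reads in mutants and 133, 125 and 100 in WT, a log2 fold change of 1.08 (SE 0.11). *cenpn*, *cenph* and *cenpo* belong to the constitutive centromere-associated network, the inner layer of the kinetochore. *cenpn* was at 8.94 ± 0.518 CPM in mutants and 3.67 ± 0.505 CPM in WT (SD, n = 3 each), with a fitted log2 fold change of 1.28 (SE 0.16). *cenph* and *cenpo* stood on 27 to 57 reads in mutants and 10 to 31 in WT, and their log2 fold changes were 1.1 for each, with SE 0.26 for *cenph* and SE 0.27 for *cenpo*. In each of these 6 genes all mutant samples lay above all WT samples, as they did for 16.8% of all transcripts tested. The 6 are named because the authors' tables list them as changed, so this was largely fixed by that listing. Of the 6, WT replicate 2 was the highest WT sample in 4, beside 29.0% of all transcripts tested. Among their mutant samples the order was mixed, with replicate 1 the highest in 3, replicate 2 in 2 and replicate 3 in 1.

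**Figure D4:**
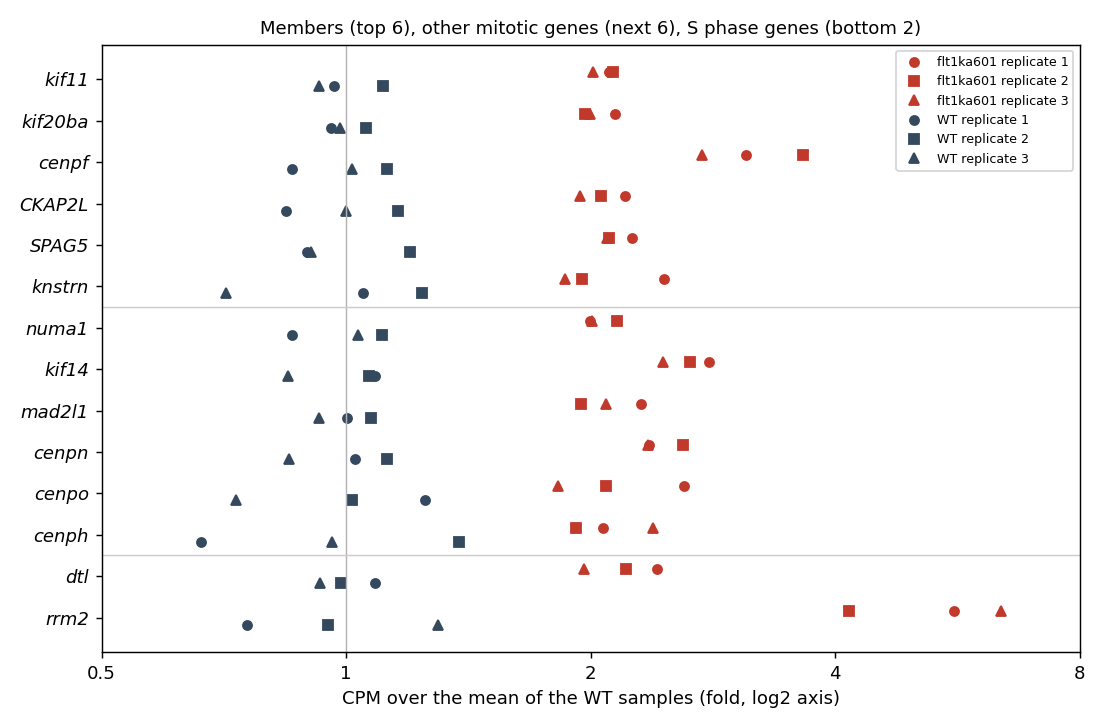
CPM of each sample over the mean of the WT samples, on a log2 axis, for the 6 members, 6 other mitotic genes and 2 genes of S phase, with flt1ka601 samples in red above WT samples in dark blue in each row. The mutant samples of the 5 members other than *cenpf* lie between 1.86 and 2.46 times the WT mean, those of *cenpf* between 2.74 and 3.65 times, and those of *rrm2* between 4.16 and 6.40 times.

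Of 45 genes of S phase, the phase before G2 and mitosis in which DNA is copied, 2 are named in the deposited tables. *dtl*, a substrate receptor of a ubiquitin ligase that acts at replication, had a log2 fold change of 1.13 (SE 0.14), near those of the members. *rrm2*, which encodes the small subunit of ribonucleotide reductase, had 462, 273 and 434 reads in mutants and 58, 64 and 81 in WT, a log2 fold change of 2.44 (SE 0.20). On the CPM scale its highest mutant sample was replicate 3, which was the highest for 0 of the members. Its lowest was replicate 2, as among the members only for *kif20ba*.

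The profile over the 6 samples, taken as log2 CPM centred on the mean of each transcript, was compared with the mean profile of the members for the 381 other named transcripts that passed the filter. The step between genotypes, on which members and candidates were both selected, makes up most of such a profile, so that a near profile is mainly a fold change near that of the members. By the root mean square difference over the 6 samples, the nearest were *rpa3* with 0.085, *fbp1b* with 0.092, *mad2l1* with 0.097, *rpl8* with 0.097 and *cenpn* with 0.11. Against this mean, which includes them, the members stood at 0.049 for *SPAG5*, 0.063 for *kif11*, 0.091 for *CKAP2L*, 0.097 for *kif20ba*, 0.19 for *knstrn* and 0.25 for *cenpf*. *rpa3* encodes a subunit of the replication protein A complex, *fbp1b* a fructose-bisphosphatase and *rpl8* a ribosomal protein. The *fbp1b* and *rpl8* transcripts stood on 13 to 95 reads per sample. None of *rpa3*, *fbp1b* and *rpl8* is in the lists above.

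Markers of other cell types and organs are named only where the authors' tables list them as changed. That they differ between the genotypes was therefore largely fixed by that listing. Of all transcripts tested, 5.44% were called higher in mutants, and 907 of 21029 were called lower. Of 18 names of red blood cells and their globins, 5 are in the deposited tables, and all 5 were called higher in mutants. Their summed level was 666 to 1013 CPM in mutant samples and 262 to 295 CPM in WT samples. Of 22 names of digestive enzymes and other genes of the exocrine pancreas, 7 transcripts are in the tables and 4 passed the filter, of which 2 were called lower. The summed level of these 4 was 31.6 to 109 CPM in mutants and 146 to 257 CPM in WT, and mutant replicate 1 was the lowest. Of 29 endothelial names 3 are in the tables and 2 were called higher, and the 3 transcripts together reached 13.0 to 15.3 CPM in mutants and 5.77 to 6.43 CPM in WT. Of 28 names of neural progenitors and neurons, 0 are in the tables. No marker of these lists that passed the filter had 0 reads in a sample. The part of these cell types in the higher level of the mitotic genes was not tested.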

How the data were processed

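RNA of whole larvae was sequenced in 3 flt1ka601 and 3 WT samples. The authors aligned reads with TopHat2 2.0.10 and Bowtie2 2.1.0. The paper's methods name the GRCz10 assembly and the submitters' processing notes name Zv9, and no coordinates are given here. The authors deposited HTSeq 0.6.1 counts per Ensembl transcript, without normalization, for 54869 transcripts. The authors' deposited DESeq table gives a mean signal per genotype (counts over size factors), and their deposited Cuffdiff table an FPKM value per genotype. Both hold only transcripts past the authors' thresholds. Their fold and p columns were not used. The genotype means of the DESeq table were recomputed from the count columns for 359 of 359 transcripts within 0.001%, which checked the genotype of the columns but not the replicate numbers, taken from the order of the column headings.

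The deposited counts were fitted with edgeR 4.0.16 (R 4.3.3), after a filter on low counts with filterByExpr (10 counts at the median library size in 3 samples, 15 in total). TMM factors ran from 0.874 to 1.05, and the quasi-likelihood test had genotype as the only term. Standard errors and 95% intervals derive from the fold change and the F statistic and are approximate. The fit was tested on simulated data. Alternatives were other scalings, DESeq2 1.42.0, other filters, the replicate block, each sample left out and, added after seeing the data, glmTreat and a wider library size. The members and lists were chosen with earlier results of these data known. Named are the members, the genes of the mitotic and S phase lists that the deposited tables name, and the 5 nearest profiles. The cell type lists are given by counts and sums, and 7 replication and repair genes were added after their values were seen. The planned search for promoter motifs, and any sequence of the members, was not analysed here.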

Additional observations from a re-analysis of the deposited data

How the results depend on the processing

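The number of members called, 6 of 6, and the direction of each member's fold change were kept under every alternative that tested against no change. Over these alternatives 1.95% to 8.7% of all transcripts tested were called higher. As the members were selected on this contrast in these same samples, this was largely fixed by the selection and supports nothing. The test against a 2-fold change, added after seeing the data, called 0 members and 41 transcripts in all, of the 2052 called against no change. Over all alternatives the log2 fold change ran from 0.88 (*knstrn* without WT replicate 3) to 1.79 (*cenpf* with total counts as the scaling). Total counts moved the median log2 fold change of all transcripts to 0.12, and the members then stood 1.03 to 1.67 above it. With that scaling 83.1% of all calls were higher in mutants, against 55.8% with TMM. The log2 ratio of the summed member reads was 1.08 with TMM, and it was 1.03 to 1.17 with each sample left out. The count of all transcripts called was between 717 and 2789 with a sample left out. It was 1094 without WT replicate 2 and 836, 717 and 894 without mutant replicates 1, 2 and 3. Between the deviations of same-numbered mutant and WT samples the correlations were 0.022 to 0.080. Between those of differently numbered samples they were -0.064 to 0.0058. The deviations were taken from the mean of each genotype and cancel within it, so the former and the latter correlations are not independent. Whether the replicate number pairs the samples was not tested. With the number as a block, 6 members were still called and 2352 transcripts in all. At this depth the 95% interval of *knstrn* spans 0.63 to 1.49, and *cenpf* rests on 26 to 105 reads per sample.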

Other observations

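Other named genes of DNA replication, repair and chromosome structure, picked after their values were seen, were higher in mutants beside the mitotic genes. The 7 genes had a median log2 fold change of 1.14. *brca2*, which loads the recombinase at DNA breaks, had 699, 540 and 489 reads in mutants and 235, 279 and 279 in WT, a log2 fold change of 1.04 (standard error 0.13). *ncaph2*, a subunit of the condensin II complex that compacts chromosomes, had 293, 220 and 202 reads in mutants and 120, 99 and 75 in WT, a log2 fold change of 1.22 (standard error 0.13). *h2afx*, the histone variant H2AX, was at 1.46 on that scale (standard error 0.10), and the replication genes *gins3* and *rpa3* had 1.09 and 1.07. The recombination gene *rad54l* was at 1.14 and the cell cycle repressor *e2f7*, on 9 to 44 reads per sample, at 1.43. All 7 are named only because the authors' tables list them, so their direction was fixed by that choice.

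In RefSeq's annotation of the assembly GRCz12tu, which matched all 6 members by symbol or synonym, *kif11*, *kif20ba* and *cenpf* lie on the same chromosome, with 87 protein-coding genes between *kif11* and *kif20ba* and 204 between *kif20ba* and *cenpf*. That chromosome, picked as the one that holds most members, has 3.50% of the protein-coding genes of this annotation. As it was picked in this way, its share is no measure of clustering, and whether the members cluster was not tested. *knstrn* and *SPAG5* share another chromosome, with 273 protein-coding genes between them.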
